A study of Arabidopsis thaliana with 6 samples.

Results

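The large subunit of the cytosolic ribosome of Arabidopsis thaliana, the 60S subunit, is described here through 52 of the 32833 genes in the deposited count table. The members were chosen by identity and not by their values, though with earlier results of these data known. They encode the core proteins RPL3 to RPL13, RPL18, RPL23 and RPL23a and the acidic stalk proteins P0 to P3, with all of their listed gene copies (paralogs). They fall into 20 protein families, 19 of which have 2 or more listed paralogs. The list is not complete. Genes outside it include AT5G23900 (annotated as L13e), AT1G80750 (L30/L7), AT2G47570 (L18), and AT1G08360, AT2G27530 and AT5G22440 (L1p/L10e). Family sums and shares therefore cover the listed genes only. A paralog is called by its symbol or synonym in the RefSeq annotation (build TAIR10.1) where it has one, and by its locus identifier otherwise. That annotation names 7 of the members only as 60S acidic ribosomal proteins, so their split into P1, P2 and P3 types rests on general knowledge of these loci.

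RNA was measured by bulk sequencing in protoplasts, cells stripped of their walls, from root tips of seedlings grown for 7 days. All plants had the same genotype, given as Col0/H2B-RFP/CDT1a-GFP, so every group carried a red reporter of histone H2B and a green reporter of the replication licensing factor CDT1a. Cells were sorted by DNA content in place of cell cycle phase into a 2n gate called G1, a 4n gate called G2M and a gate between them called S, with 2 libraries each and no other treatment. A gate on DNA content also takes cells that have left the cycle with that content, so each gate may hold both. No label says whether the pair of libraries of a gate came from separate plants, so the p-values measure the spread between these samples, which may be technical.

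The 60S subunit joins the small subunit to make a ribosome, and it holds the peptidyl transferase centre, the tunnel through which the new protein leaves and the stalk that recruits translation factors. One copy of most of its proteins is built into each subunit, while the stalk carries several acidic proteins anchored by P0. In plants, each ribosomal protein is encoded by a small gene family, and the promoters of such genes are known for the telo-box and for site II elements. Root tip meristems are known as sites of high ribosome production.

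Levels are given in CPM, counts scaled to a common library size with TMM factors, which allow 1 gene to be compared between libraries. Genes are compared with each other in TPM, which also divides by exon length and was recomputed from the counts. A log2 fold change is given ± its SE, so 1 means a doubling, and a gene was called higher or lower where the edgeR quasi-likelihood test gave an adjusted p under 0.05 over all 25364 genes tested. With 2 libraries against 2, an exact permutation test of 1 gene cannot go below p = 0.333, so calls rest on a spread estimated across genes. All 52 members passed the filter on low counts. The 3 comparisons share libraries, since each gate enters 2 of them, so they are not independent of each other.

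Total counts per library ran from 13114711 to 208406910, and 285 plastid and mitochondrial genes took between 3.32% and 8.74% of them, most in G1. The S pair was the least alike: over all genes tested, the SD of the log2 difference between its libraries was 0.602, against 0.350 in G1 and 0.367 in G2M. S replicate 2 was also the shallowest library. In each gate the members were mostly higher in replicate 2 than in replicate 1 (45, 47 and 46 of 52 members in G1, S and G2M), with median log2 differences of 0.09, 0.22 and 0.10. Of 8 root identity genes, 7 were above 4 CPM in every library, and WOX5, which marks the quiescent centre, stayed at or below 0.542 CPM. The leaf genes RBCS1A, LHCB1.1 and CAB3 stayed at or below 2.59 CPM. The summed level of the 8 root genes was 282 to 323 CPM in G1, 271 to 320 in S and 297 to 315 in G2M, but single genes moved with the gates. From G1 to G2M, GL2, SCR, SHR and PLT2 were higher without overlap, the epidermal regulator WER and the root cap regulator SMB were lower, and PLT1 and WOX5 overlapped. GL2, a regulator of epidermal cell fate, gave 15.2 and 10.5 CPM (G1), 26.2 and 31.4 CPM (S) and 57.7 and 51.1 CPM (G2M), and SMB gave 111 and 78.5 CPM (G1), 44.6 and 47.7 CPM (S) and 20.6 and 14.9 CPM (G2M). The part of cell types in the results was not tested. Of 4 genes of the cell cycle, the mitotic cyclin gene CYCB1;1 gave 4.87 and 4.23 CPM (G1), 62.4 and 67.0 CPM (S) and 85.8 and 77.7 CPM (G2M), and it and KNOLLE were higher at each gate in turn without overlap. CDKB2;1 was low in G1 and overlapped between S and G2M, at 5.93 and 3.99 CPM (G1), 79.9 and 91.5 CPM (S) and 89.4 and 91.4 CPM (G2M). CDT1A was lowest in S, at 158 and 148 CPM (G1), 54.1 and 83.0 CPM (S) and 142 and 154 CPM (G2M). In bulk samples, fewer cells of a type and less RNA per cell cannot be told apart.

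The promoters of 5 members are shown because they carry the elements searched for, or lack them, and because they belong to genes with different courses over the gates. Each run is 300 bases long, with 250 bases before the annotated start and 50 from it on, read 5′ to 3′ on the gene's strand from the RefSeq sequence of TAIR10.1. Capitals mark the telo-box AAACCCTA and the site II elements TGGGCC and TGGGCT on either strand. AT3G09630 encodes an RPL4 and rose in every comparison, RPL10A and RPL10C are paralogs that parted, AT1G01100 encodes a P1 stalk protein, and AT3G13580 encodes an RPL7 and has neither element.
AT3G09630 (RPL4), chr3:2953443-2953742, plus strand: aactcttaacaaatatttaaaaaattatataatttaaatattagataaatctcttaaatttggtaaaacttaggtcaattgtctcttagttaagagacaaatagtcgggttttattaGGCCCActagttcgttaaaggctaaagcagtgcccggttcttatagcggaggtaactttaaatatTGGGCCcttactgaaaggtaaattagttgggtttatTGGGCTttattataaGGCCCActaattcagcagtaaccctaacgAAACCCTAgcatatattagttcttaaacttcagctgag
RPL10A, chr1:4887864-4888163, plus strand: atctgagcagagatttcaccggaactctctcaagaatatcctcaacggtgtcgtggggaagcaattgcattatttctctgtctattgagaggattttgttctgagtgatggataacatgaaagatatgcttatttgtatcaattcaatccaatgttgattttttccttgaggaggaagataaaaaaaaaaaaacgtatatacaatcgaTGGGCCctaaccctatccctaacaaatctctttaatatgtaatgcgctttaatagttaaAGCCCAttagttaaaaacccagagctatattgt
RPL10C, chr1:24838840-24839139, plus strand: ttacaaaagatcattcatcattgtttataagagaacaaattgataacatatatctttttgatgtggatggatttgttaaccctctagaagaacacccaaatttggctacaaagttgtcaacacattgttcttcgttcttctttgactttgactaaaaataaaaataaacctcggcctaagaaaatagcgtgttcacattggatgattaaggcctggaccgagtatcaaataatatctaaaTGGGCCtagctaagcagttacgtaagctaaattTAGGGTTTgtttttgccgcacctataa
AT1G01100 (P1), chr1:51161-51460, minus strand: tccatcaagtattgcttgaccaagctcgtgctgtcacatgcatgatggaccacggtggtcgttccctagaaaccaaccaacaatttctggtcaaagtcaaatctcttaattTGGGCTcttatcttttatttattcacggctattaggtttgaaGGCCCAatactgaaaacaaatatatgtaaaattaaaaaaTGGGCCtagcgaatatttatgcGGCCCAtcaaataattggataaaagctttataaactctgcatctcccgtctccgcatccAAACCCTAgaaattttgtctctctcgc
AT3G13580 (RPL7), chr3:4432797-4433096, plus strand: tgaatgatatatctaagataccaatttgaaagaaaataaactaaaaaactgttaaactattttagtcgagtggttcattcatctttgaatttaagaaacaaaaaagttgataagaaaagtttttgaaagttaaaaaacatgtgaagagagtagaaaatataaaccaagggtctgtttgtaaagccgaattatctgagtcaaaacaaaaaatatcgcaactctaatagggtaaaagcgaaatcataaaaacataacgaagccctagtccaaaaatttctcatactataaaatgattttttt

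The telo-box was found in 26 of the 52 member promoters (50%), against 6.22% of 27443 promoters of the same length in the genome. A site II element was found in 44 members (84.6%), against 21.7% of all promoters, and 35 members (67.3%) had 2 or more, against 13.7%. A palindrome such as TGGGCCCA counts once on each strand. Both elements occurred together in 22 members (42.3%), against 2.2% of all promoters. The sequence TATAAA, searched for contrast, was in 31 members (59.6%) and in 52.1% of all promoters. Members with and without a telo-box had close median log2 fold changes, at 0.23 and 0.21 for S versus G1, 0.54 and 0.63 for G2M versus S, and 0.72 and 0.74 for G2M versus G1. A match is a description of the letters in this window and not a site of binding.

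Many of the members were among the most abundant transcripts. By mean TPM over the 6 libraries, 20 of them ranked among the highest 100 and 42 among the highest 500 of 32548 nuclear genes. Together they took 4.30% and 4.67% (G1), 5.03% and 5.50% (S) and 6.94% and 7.19% (G2M) of all TPM. The 3 gates did not overlap in this share, and S lay between the others. Their share of all nuclear counts moved likewise, at 3.52% and 3.85% (G1), 3.90% and 4.25% (S) and 5.41% and 5.71% (G2M).

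Summed levels differed between the families, although most of their proteins are present once in each subunit. Summed over its listed paralogs, RPL8 was the highest family with a mean of 4896 TPM, at 3557 and 3835 TPM (G1), 3919 and 4853 TPM (S) and 6532 and 6682 TPM (G2M). P2 was the lowest with 885 TPM, at 823 and 932 TPM (G1), 720 and 714 TPM (S) and 997 and 1123 TPM (G2M), a ratio of 5.54 between the means. The order of families depends on how many paralogs of each are in the list, so neighbours are not ranked here. Genes outside the list, such as the acidic protein gene AT2G27720, enter no sum. The lowest place of P2 and the ratio therefore hold for the listed paralogs only. The highest single members were EMB2296 (RPL8) with a mean of 3636 TPM, RPL10A with 2849.5 and RPL16B (RPL11) with 2510.3. The lowest were AT3G51190 (RPL8) with 0.944 TPM, AT2G40010 (P0) with 10.8 and RPL10B with 34.6.

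**Figure D1:**
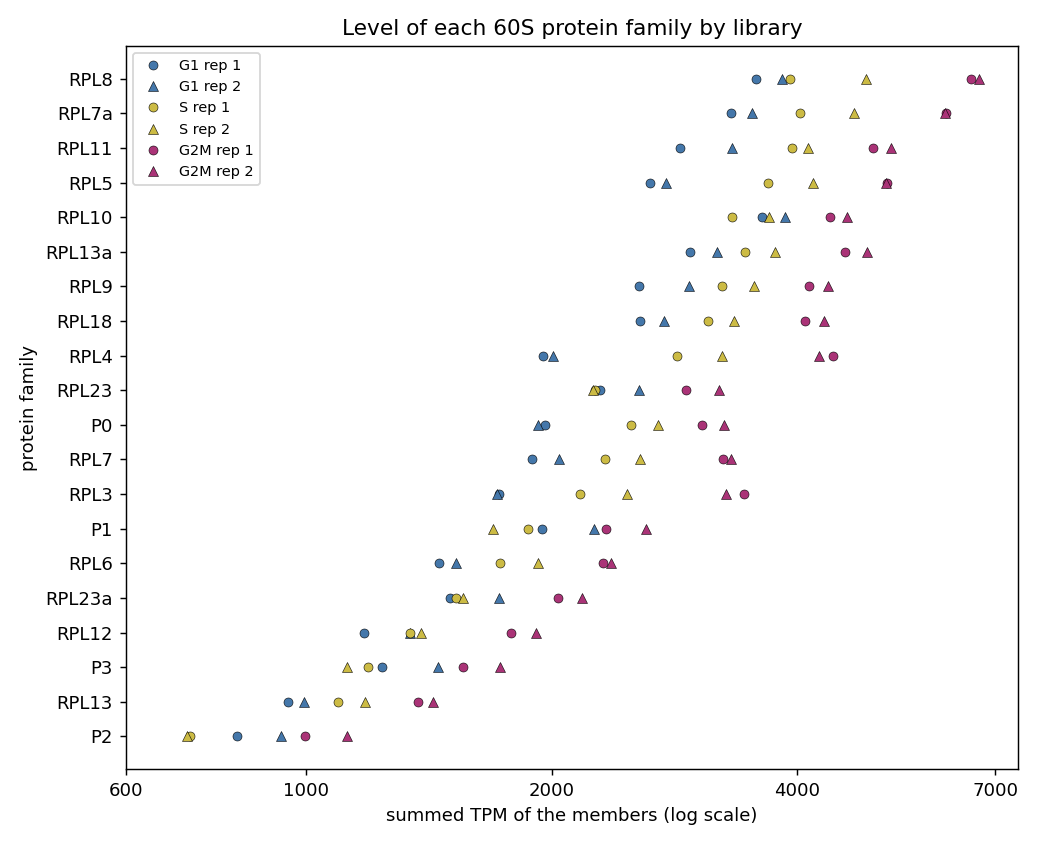
Summed TPM of the listed members of each of the 20 protein families (horizontal axis, log scale) in each of the 6 libraries, with circles for replicate 1 and triangles for replicate 2. In every family the 2 G2M libraries had the highest sums, and RPL8 and P2 stand at the ends of the order of means.

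From S to G2M nearly all members rose. Of 52 members, 49 were called higher and none lower, where 9.46% and 10.1% of all genes tested were called higher and lower. The median log2 fold change was 0.58 over the members and -0.10 over all genes tested. In 50 members both G2M libraries lay above both S libraries, which held for 28.6% of all genes. The 3 members that did not pass were AT5G48760 (RPL13a), AT3G51190 (RPL8) and AT2G40010 (P0), named here because they are the exceptions. AT5G48760 came close, at a log2 fold change of 0.36 ± 0.12 (edgeR adjusted p = 0.0526). These counts rest on both G2M libraries: 16 members were called higher without G2M replicate 1 and 8 without G2M replicate 2, with median log2 fold changes of 0.65 and 0.53, while 1.74% and 2.08% of all genes were called higher. Without S replicate 1 the count was 37 (median 0.47, 5.94% of all genes), and without S replicate 2 it was 50, with 1 called lower (median 0.72, 17.8% and 16.1% of all genes).

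From G1 to G2M the rise was larger. Here 46 members were called higher and 1 lower, where 23.2% and 17.1% of all genes were. The median log2 fold change was 0.73 over the members and -0.14 over all genes tested. Both G2M libraries lay above both G1 libraries in 50 members, against 36.4% of all genes. The 5 members that did not pass in either direction were AT3G13580 (RPL7), RPL10B, RPL10C, AT1G04480 (RPL23) and AT1G01100 (P1). With upper-quartile scaling in place of TMM, the median of all genes moved by -0.22 for this comparison, and the share of all genes called higher and lower turned from 23.2% and 17.1% to 17.5% and 22.3%. With that scaling 40 members were still called higher, and the gap between the members' median and that of all genes was 0.87, against 0.88 with TMM.

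From G1 to S the members parted. Only 15 were called higher and 1 lower, where 13.9% and 7.28% of all genes were, and the median log2 fold change was 0.22 against 0.08 over all genes. Both S libraries lay above both G1 libraries in 27 members and below them in 11, against 30.2% and 25% of all genes. These counts depended on the libraries and on the scaling. Without S replicate 2, the members' median was 0.07 and 9 were called higher and 3 lower, where 12.3% and 9.77% of all genes were. Without S replicate 1 it was 0.33 with 27 higher and 1 lower, where 16.9% and 8.34% of all genes were. With G1 replicate 1 or 2 left out, 4 and 5 of 52 were called higher, near the 8.03% and 7.09% of all genes called there. With G2M replicate 1 or 2 left out of the shared fit, 7 and 10 were called higher, where 9.41% and 10.1% of all genes were. Upper-quartile scaling gave 8 higher and 10 lower, and it turned the share of all genes called higher and lower from 13.9% and 7.28% to 9.46% and 11.9%. Of the 16 calls, those of RPL3B, AT5G02870 (RPL4), AT2G40010 and AT3G11250 (both P0) were made in each of the 14 alternatives, and the other 12 were each lost in 1 to 7 of them. By mean CPM, S lay between G1 and G2M in 35 members and was the lowest gate in 16.

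**Figure D2:**
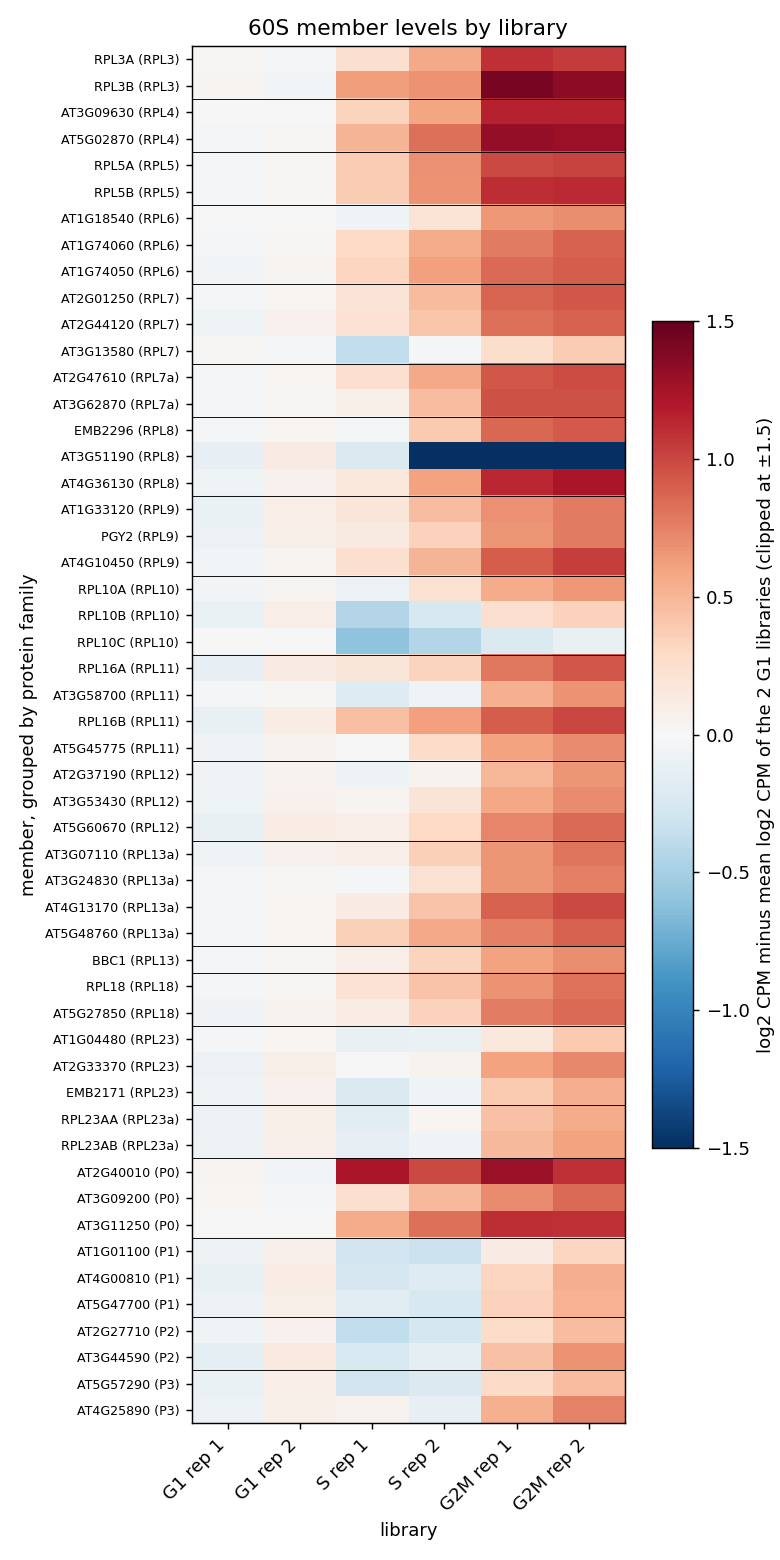
Level of each of the 52 members (rows, grouped by protein family) in each of the 6 libraries (columns), as log2 CPM minus the mean log2 CPM of the 2 G1 libraries, with values beyond ±1.5 shown as 1.5. The G2M columns are red in nearly every row, while the S columns are red for RPL3, RPL4, RPL5 and P0 and blue for most P1 to P3 rows, and AT3G51190 is the 1 row that is blue in G2M by more than 1.5.

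Summing the counts of each family does not rely on how reads were divided between close paralogs. All 20 families rose from S to G2M and all 20 from G1 to G2M, where 9.32% and 23.1% of the rows of that table were called higher. From G1 to S, 4 of 20 families rose (RPL3, RPL4, RPL5 and P0) and none fell, where 13.9% of rows were called higher and 7.27% lower. With 1 library left out, 0 families rose from G1 to S when the library left out was from G1, 2 when it was from G2M, 13 when it was S replicate 1 and 2 when it was S replicate 2. The rise from S to G2M was called in 5 families without G2M replicate 1 and in 4 without G2M replicate 2. The largest family change from G1 to G2M was RPL4 at 1.26 ± 0.13 (edgeR adjusted p = 6.68e-06), and the smallest was P1 at 0.36 ± 0.12 (edgeR adjusted p = 0.0301).

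**Figure D3:**
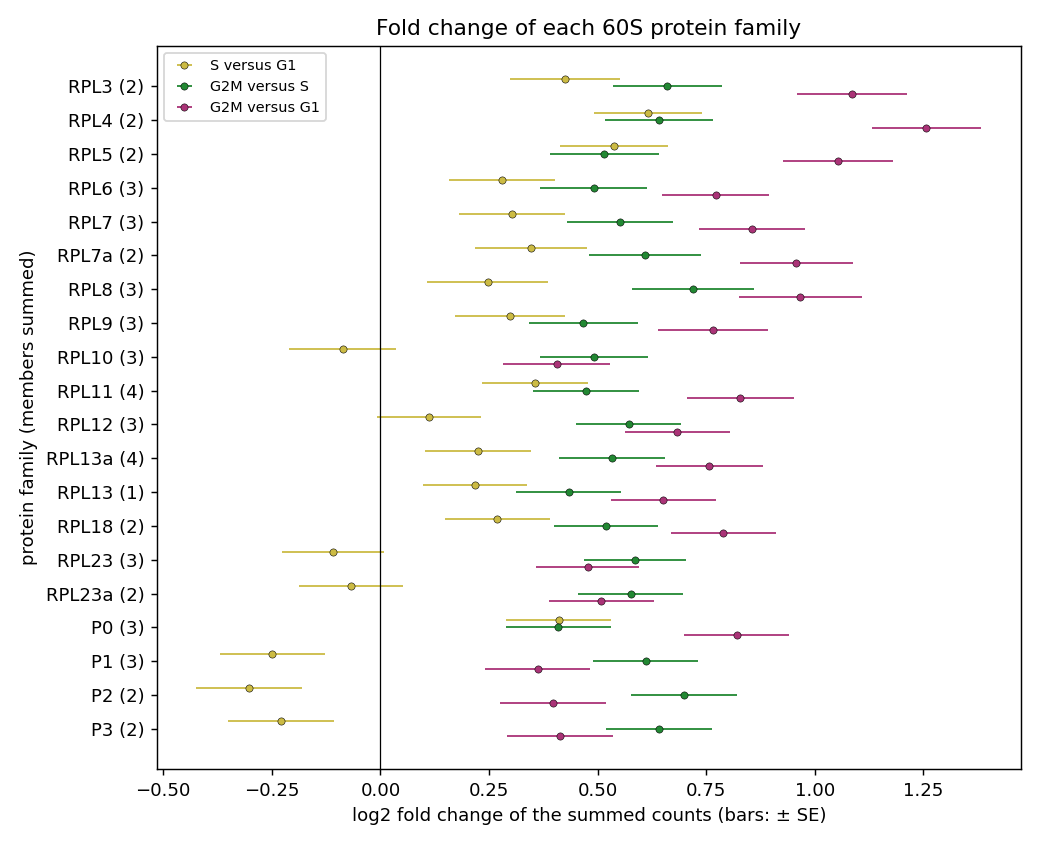
Log2 fold change of the summed counts of each protein family (number of paralogs in brackets) in the 3 comparisons, with bars for ± 1 SE. All 20 families lie right of 0 in both comparisons with G2M, while RPL10, RPL23, RPL23a, P1, P2 and P3 lie left of 0 for S versus G1.

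RPL4, RPL3 and RPL5, proteins of the tunnel, the catalytic core and the 5S particle, had the largest family changes from G1 to G2M, at 1.26 ± 0.13, 1.09 ± 0.13 and 1.05 ± 0.13. RPL3, which reaches towards the peptidyl transferase centre, has a major and a minor paralog. RPL3A (AT1G43170, chromosome 1, 16266553 to 16268945, plus strand) gave 1727 and 1683 CPM (G1), 2019 and 2530.3 CPM (S) and 3637 and 3535 CPM (G2M). RPL3B (AT1G61580, chromosome 1, 22720560 to 22723152, minus strand) gave 61.6 and 57.9 CPM (G1), 92.1 and 95.0 CPM (S) and 160 and 151 CPM (G2M). The 3 gates did not overlap in either gene. RPL3B had the largest rise of any member from G1 to G2M, 1.38 ± 0.12 (edgeR adjusted p = 2.09e-06), and it rose by 0.65 ± 0.12 from G1 to S, while RPL3A rose by 1.07 ± 0.13 and 0.42 ± 0.13. The call of RPL3A from G1 to S was lost in 6 of 14 alternatives. RPL3B nevertheless supplied only between 3.88% and 5.08% of the RPL3 TPM.

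RPL4 lines the exit tunnel. AT5G02870 (chromosome 5, 657675 to 659800, plus strand), the higher of its paralogs, gave 1323 and 1349 CPM (G1), 1899 and 2375 CPM (S) and 3327 and 3246 CPM (G2M). AT3G09630 (chromosome 3, 2953693 to 2955748, plus strand) gave 604 and 594 CPM (G1), 753 and 903 CPM (S) and 1337 and 1331 CPM (G2M). Both rose at each step, and AT5G02870 rose by 0.68 ± 0.13 from G1 to S (edgeR adjusted p = 0.00227) and by 1.30 ± 0.13 from G1 to G2M. AT3G09630 rose by 0.47 ± 0.12 and 1.15 ± 0.12, and its share of the RPL4 TPM was 31.4% and 30.7% (G1), 28.5% and 27.6% (S) and 28.8% and 29.2% (G2M), lower in S and G2M than in G1 without overlap.

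RPL5 and RPL11 bind the 5S ribosomal RNA together and enter the subunit as 1 particle. RPL5A (AT3G25520, chromosome 3, 9269277 to 9271465, minus strand), also annotated as OLIGOCELLULA 5 and PIGGYBACK3 after leaf shape mutants, gave 1242 and 1274 CPM (G1), 1634 and 2030.0 CPM (S) and 2488 and 2548 CPM (G2M). RPL5B (AT5G39740, OLIGOCELLULA 7) gave 1049 and 1072 CPM (G1), 1377 and 1691 CPM (S) and 2276 and 2303 CPM (G2M). Both genes were higher in S than in G1 and higher again in G2M, and they kept nearly equal shares, RPL5A making up between 50.6% and 53.0% of the RPL5 TPM. Their changes from G1 to S were 0.54 ± 0.13 and 0.53 ± 0.12, and from G1 to G2M 1.00 ± 0.13 and 1.11 ± 0.12 (edgeR adjusted p = 4.26e-05 and 1.65e-05).

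The RPL11 paralogs did not move as one. RPL16B (AT4G18730, an RPL11 under an older name) gave 825 and 969 CPM (G1), 1225 and 1365 CPM (S) and 1672 and 1792 CPM (G2M). It rose by 0.53 ± 0.12 from G1 to S (edgeR adjusted p = 0.00854). AT3G58700 gave 84.8 and 86.2 CPM (G1), 75.0 and 81.6 CPM (S) and 124 and 136 CPM (G2M), with -0.13 ± 0.12 from G1 to S (edgeR adjusted p = 0.549) and a rise of 0.73 ± 0.12 from S to G2M. The other RPL11 genes, RPL16A and AT5G45775, were not called from G1 to S, and both rose to G2M. RPL16B took 56.5% and 58.4% (G1), 65.0% and 63.5% (S) and 62.2% and 62.0% (G2M) of the RPL11 TPM, lowest in both G1 libraries.

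RPL8 lies at the peptidyl transferase centre and at a bridge to the small subunit. EMB2296 (AT2G18020, chromosome 2, 7837067 to 7838476, plus strand), named for an embryo defective mutant and the highest member by TPM, gave 1931 and 2019 CPM (G1), 1929 and 2594 CPM (S) and 3595 and 3732 CPM (G2M). AT4G36130 gave 603 and 655 CPM (G1), 702 and 954 CPM (S) and 1378 and 1464 CPM (G2M) and had the largest rise of any member from S to G2M, 0.78 ± 0.14 (edgeR adjusted p = 0.00311). EMB2296 rose by 0.70 ± 0.14 in the same step, and neither was called from G1 to S. Of the exons of AT4G36130, 23.9% overlap a gene on the opposite strand.

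The other RPL8 gene, AT3G51190, was close to silent. Its counts were 103 and 62 (G1), 164 and 3 (S) and 1 and 4 (G2M), or at most 0.939 CPM. With TMM scaling it was the only member called lower from G1 to G2M (edgeR adjusted p = 0.0322). The ratio of its pooled counts per total count, 5 in G2M against 165 in G1, was 0.121, with an exact 95% counting interval of 0.0388 to 0.288 that leaves out the spread between libraries. The call was lost in 7 of 14 alternatives.

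RPL10 joins late, in the last steps of maturation in the cytoplasm, and in Arabidopsis it is also known from antiviral signalling. Its major paralogs parted between the gates. RPL10A (AT1G14320, chromosome 1, 4888114 to 4889704, plus strand), also known as SAC52, gave 1800.2 and 1911 CPM (G1), 1745 and 2165 CPM (S) and 2721 and 2914 CPM (G2M). RPL10C (AT1G66580, chromosome 1, 24839090 to 24840806, plus strand), whose annotated symbol SAG24 marks it as senescence associated, gave 833 and 842 CPM (G1), 550 and 617 CPM (S) and 722 and 774 CPM (G2M). In RPL10A the G1 and S libraries overlapped and both G2M libraries were highest, whereas in RPL10C both G1 libraries were highest.

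With TMM scaling RPL10C was the only member that fell from G1 to S, at -0.52 ± 0.12 (edgeR adjusted p = 0.00631), a call lost when either G1 library was left out. RPL10A changed by 0.08 ± 0.13 in that step (edgeR adjusted p = 0.774). Both rose from S to G2M, RPL10A by 0.53 ± 0.13 and RPL10C by 0.36 ± 0.12 (edgeR adjusted p = 0.0131 and 0.0465). These calls were lost in 2 and 6 of 14 alternatives. From G1 to G2M, RPL10A rose by 0.60 ± 0.13 (edgeR adjusted p = 0.00220), while RPL10C stood at -0.16 ± 0.12 (edgeR adjusted p = 0.280).

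Per length, RPL10C made up 33.4% and 32.3% (G1), 25.5% and 23.7% (S) and 22.4% and 22.4% (G2M) of the RPL10 TPM, and RPL10A 65.7% and 66.7% (G1), 73.6% and 75.6% (S) and 76.7% and 76.7% (G2M). The shares of the gates did not overlap, although the difference between the paralogs was not itself tested across genes and 2 against 2 libraries allow no exact p below 0.333. RPL10B, the minor paralog, stayed between 16.3 and 28.0 CPM, at less than 1% of the family in every library. RPL10A and RPL10C share no stretch of 100 bases with each other or with any other gene of the reference.

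The RPL6 paralogs also parted. AT1G18540 gave 644 and 649 CPM (G1), 616 and 744 CPM (S) and 1017 and 1051 CPM (G2M). AT1G74060 gave 365 and 375 CPM (G1), 456 and 546 CPM (S) and 637 and 682 CPM (G2M). AT1G74050 gave 290 and 309 CPM (G1), 374 and 460 CPM (S) and 538 and 562 CPM (G2M). In S both of the latter lay above their G1 libraries, and they rose from G1 to S by 0.44 ± 0.12 and 0.48 ± 0.13 (edgeR adjusted p = 0.0230 and 0.0173). These calls were lost in 6 and 5 of 14 alternatives, with log2 fold changes of 0.24 and 0.28 at the lowest. AT1G18540 stood at 0.07 ± 0.12 from G1 to S (edgeR adjusted p = 0.768). Its share of the RPL6 TPM was 48.0% and 47.0% (G1), 41.0% and 40.9% (S) and 44.7% and 44.1% (G2M), highest in G1 and lowest in S. AT1G18540 and AT1G74060 overlap genes on the opposite strand over 40.1% and 35.7% of their exons.

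RPL7 and RPL7a are separate rRNA-binding proteins despite their names. AT2G01250 (RPL7) gave 945 and 992 CPM (G1), 1108 and 1347 CPM (S) and 1774 and 1852 CPM (G2M). AT3G62870 (RPL7a) gave 1285 and 1326 CPM (G1), 1387 and 1797 CPM (S) and 2523 and 2538 CPM (G2M). AT2G47610, its paralog, gave 1059.8 and 1108 CPM (G1), 1294 and 1603 CPM (S) and 2071 and 2139 CPM (G2M). All 3 were highest in both G2M libraries, with changes from G1 to G2M of 0.90 ± 0.12, 0.95 ± 0.13 and 0.96 ± 0.13. AT2G47610 also rose from G1 to S, by 0.42 ± 0.13 (edgeR adjusted p = 0.0317), a call lost in 6 of 14 alternatives. AT3G13580, the RPL7 gene whose promoter holds neither element, gave 113 and 111 CPM (G1), 86.7 and 110 CPM (S) and 135 and 145 CPM (G2M). It rose from S to G2M by 0.51 ± 0.14 and stood at 0.33 ± 0.14 from G1 to G2M (edgeR adjusted p = 0.0721), and its share of the RPL7 TPM was between 5.47% and 5.88% in G1 and between 3.83% and 4.13% elsewhere.

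RPL9 and RPL12 sit near the base of the stalk, where translation factors with GTPase activity bind. PGY2 (AT1G33140, PIGGYBACK2) gave 753 and 847 CPM (G1), 877 and 1017 CPM (S) and 1262 and 1366 CPM (G2M). AT4G10450, also an RPL9, gave 253 and 267 CPM (G1), 308 and 371 CPM (S) and 488 and 532 CPM (G2M). AT5G60670, the highest RPL12, gave 278 and 325 CPM (G1), 322 and 370 CPM (S) and 501 and 541 CPM (G2M). The G2M libraries were highest in all 3, with changes from G1 to G2M of 0.72 ± 0.12, 0.97 ± 0.13 and 0.79 ± 0.13. AT4G10450 was called from G1 to S, at 0.38 ± 0.13 (edgeR adjusted p = 0.0472), a call lost in 6 of 14 alternatives, with a log2 fold change of 0.19 at the lowest. PGY2 stood at 0.24 ± 0.12 there (edgeR adjusted p = 0.207) and was called under the GC and length offsets, at 0.41. PGY2 and its neighbour AT1G33120 share 51.7% and 50.8% of their windows of 100 bases, so the split of reads between this pair is uncertain, while their sum enters the RPL9 family. No other member shared more than 2.14% of its windows, and 47 shared none.

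RPL13a and RPL13 are unrelated proteins and are counted apart. AT3G24830 (RPL13a) gave 757 and 776 CPM (G1), 759 and 895 CPM (S) and 1218 and 1296 CPM (G2M). AT4G13170 (RPL13a) gave 146 and 151 CPM (G1), 162 and 200 CPM (S) and 275 and 295 CPM (G2M), with 54.2% of its exons under a gene on the opposite strand. AT5G48760 (RPL13a) gave 260 and 271 CPM (G1), 341 and 393 CPM (S) and 450 and 492 CPM (G2M). AT5G48760 rose from G1 to S, by 0.47 ± 0.12 (edgeR adjusted p = 0.0149), a call lost in 4 of 14 alternatives. It also rose from G1 to G2M, by 0.83 ± 0.12 (edgeR adjusted p = 0.000138). AT3G24830 and AT4G13170 were not called from G1 to S. Both were called in each comparison with G2M, rising by 0.60 ± 0.12 and 0.66 ± 0.13 from S. BBC1 (AT3G49010), the listed RPL13 gene, gave 874 and 894 CPM (G1), 946 and 1112 CPM (S) and 1344 and 1432 CPM (G2M) and rose by 0.65 ± 0.12 from G1 to G2M.

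RPL18, RPL23 and RPL23a were carried by 1 or 2 major genes each. AT5G27850 (RPL18) gave 1308 and 1399 CPM (G1), 1455 and 1717 CPM (S) and 2310.2 and 2441 CPM (G2M). EMB2171 (AT3G04400), an RPL23 at a bridge to the small subunit, gave 953 and 1044 CPM (G1), 858 and 953 CPM (S) and 1308 and 1458 CPM (G2M). RPL23AA (AT2G39460), which docks nascent-chain factors at the tunnel exit, gave 905 and 1024 CPM (G1), 865 and 985 CPM (S) and 1301 and 1418 CPM (G2M). All 3 rose from S to G2M, by 0.58 ± 0.12, 0.61 ± 0.12 and 0.56 ± 0.12. No member of RPL23 or RPL23a was called from G1 to S, and at the family level RPL23 stood at -0.11 ± 0.12 and RPL23a at -0.07 ± 0.12 there (edgeR adjusted p = 0.613 and 0.788).

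The stalk divided into its anchor and its acidic tips. P0, which is bound to the ribosomal RNA and holds the P1, P2 and P3 proteins, rose from G1 to S in each of its 3 genes. AT3G09200 (chromosome 3, 2823088 to 2825241, minus strand), the major gene, gave 1531 and 1463 CPM (G1), 1785 and 2089.9 CPM (S) and 2449.8 and 2699 CPM (G2M). AT3G11250 gave 165 and 164 CPM (G1), 241 and 292 CPM (S) and 355 and 353 CPM (G2M). AT2G40010 gave 5.49 and 5.23 CPM (G1), 12.5 and 10.7 CPM (S) and 13.2 and 11.5 CPM (G2M). In each of the 3 genes both S libraries lay above both G1 libraries. The changes from G1 to S were 0.37 ± 0.12, 0.69 ± 0.12 and 1.12 ± 0.21 (edgeR adjusted p = 0.0457, 0.00165 and 0.00259). The call of AT3G09200 was lost in 7 of 14 alternatives, with a log2 fold change of 0.18 at the lowest. AT2G40010 had the largest rise of any member in this step, but at a low level, and 50.2% of its exons lie under a gene on the opposite strand. It stood at 0.08 ± 0.21 from S to G2M (edgeR adjusted p = 0.818), while AT3G09200 and AT3G11250 rose by 0.41 ± 0.12 and 0.41 ± 0.12. Their calls from S to G2M were lost in 5 and 7 of 14 alternatives.

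The 7 listed genes of the acidic tip proteins were lowest in S by mean CPM. None was called from G1 to S, where 13.9% of all genes were called higher and 7.28% lower, and all 7 had a log2 fold change below 0, from -0.32 to -0.03. AT2G27720, also annotated as a 60S acidic ribosomal protein, is outside the member list and enters none of the tip counts or sums. Its mean CPM was 219 (G1), 166 (S) and 246 (G2M). It was called lower from G1 to S, at -0.40 ± 0.13 (edgeR adjusted p = 0.0470). The other genes so annotated outside the list stayed at or below 2.28 mean CPM and were not called. In 5 of the 7 listed genes both S libraries lay below both G1 libraries, against 25% of all genes. Lower levels in S were not limited to the tips. Of 65 tested genes of the cytosolic large subunit outside the member list, 26 (40%) lay below G1 in S without overlap. Their median log2 fold change was -0.09, and the family sums of RPL10, RPL23 and RPL23a were also below 0. From S to G2M all 7 rose, where 9.46% of all genes did, with a median of 0.66. From G1 to G2M, 6 of 7 rose, where 23.2% of all genes did, with a median of 0.43. From G1 to S, upper-quartile scaling called 5 of the 7 lower and DESeq2 3, where 11.9% and 7.22% of all genes were called lower. Between S and G2M, 1 was called without G2M replicate 2, and from G1 to G2M, 1 was called under upper-quartile scaling, without G1 replicate 1 or without G2M replicate 2, and 4 without G1 replicate 2 or G2M replicate 1.

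Among the P1 genes, AT1G01100 (chromosome 1, 49909 to 51210, minus strand) gave 371 and 415 CPM (G1), 321 and 314 CPM (S) and 426 and 492 CPM (G2M). AT4G00810 gave 249 and 290 CPM (G1), 226 and 234 CPM (S) and 337 and 392 CPM (G2M). AT5G47700 gave 394 and 444 CPM (G1), 370 and 355 CPM (S) and 532 and 598 CPM (G2M). In each of them S was the lowest gate in both libraries and G2M the highest. AT1G01100 was the exception from G1 to G2M, at 0.22 ± 0.12 (edgeR adjusted p = 0.160), while AT4G00810 and AT5G47700 rose by 0.44 ± 0.13 and 0.43 ± 0.12.

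Of the P2 genes, AT2G27710 gave 405 and 441 CPM (G1), 326 and 352 CPM (S) and 510 and 584 CPM (G2M), and its changes were -0.32 ± 0.12 from G1 to S (edgeR adjusted p = 0.0833) and 0.69 ± 0.12 from S to G2M (edgeR adjusted p = 0.00226). AT3G44590 gave 55.0 and 67.7 CPM (G1), 52.2 and 55.7 CPM (S) and 82.5 and 97.4 CPM (G2M). The P3 proteins are known only from plants. Of their genes, AT5G57290 gave 543 and 624 CPM (G1), 476 and 500 CPM (S) and 712 and 804 CPM (G2M). AT4G25890 gave 74.7 and 84.5 CPM (G1), 82.3 and 73.2 CPM (S) and 115 and 133 CPM (G2M). AT3G44590 and AT4G25890, the lower of each pair, had overlapping G1 and S libraries, and they rose by 0.74 ± 0.15 and 0.67 ± 0.13 from S to G2M. AT5G57290 rose by 0.64 ± 0.12 in that step.

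Measured against the other members, the listed acidic tips were a smaller part of the total in S and G2M than in G1. They made up 9.32% and 9.94% of the members' TPM (G1), 7.52% and 6.42% (S) and 7.03% and 7.60% (G2M). S and G2M overlapped, and both lay below G1. The ratio of their summed TPM to that of P0 was 2.04 and 2.41 (G1), 1.51 and 1.31 (S) and 1.60 and 1.68 (G2M). Over the members averaging 10 CPM or more, the median log2 fold change from G1 to S was -0.23 for the 7 tips and 0.25 for the 43 others, a difference of -0.48, which does not depend on the scaling factors. Over the 14 alternatives this difference lay between -0.62 and -0.38. From S to G2M it was 0.10, with a range from -0.00364 to 0.21, and from G1 to G2M -0.36, with a range from -0.41 to -0.19.

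Transcript length moved with this pattern. The tips' exons sum to between 778 and 945 bases (median 856), and those of the other members to between 822 and 2212 (median 1235). Across the 50 members averaging 10 CPM or more, which share the same 6 libraries, Spearman's rho between exon length and log2 fold change was 0.49 for S versus G1, -0.07 for G2M versus S and 0.51 for G2M versus G1. When GC content and exon length were fitted as offsets over all genes, rho was 0.26, -0.43 and 0.03. In that fit the tips' median from G1 to S was -0.03, with 2 of 7 above 0, and that of the others 0.39. The difference between the medians was -0.43 with the offsets and -0.48 without them from G1 to S, 0.21 and 0.10 from S to G2M, and -0.19 and -0.36 from G1 to G2M.

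**Figure D4:**
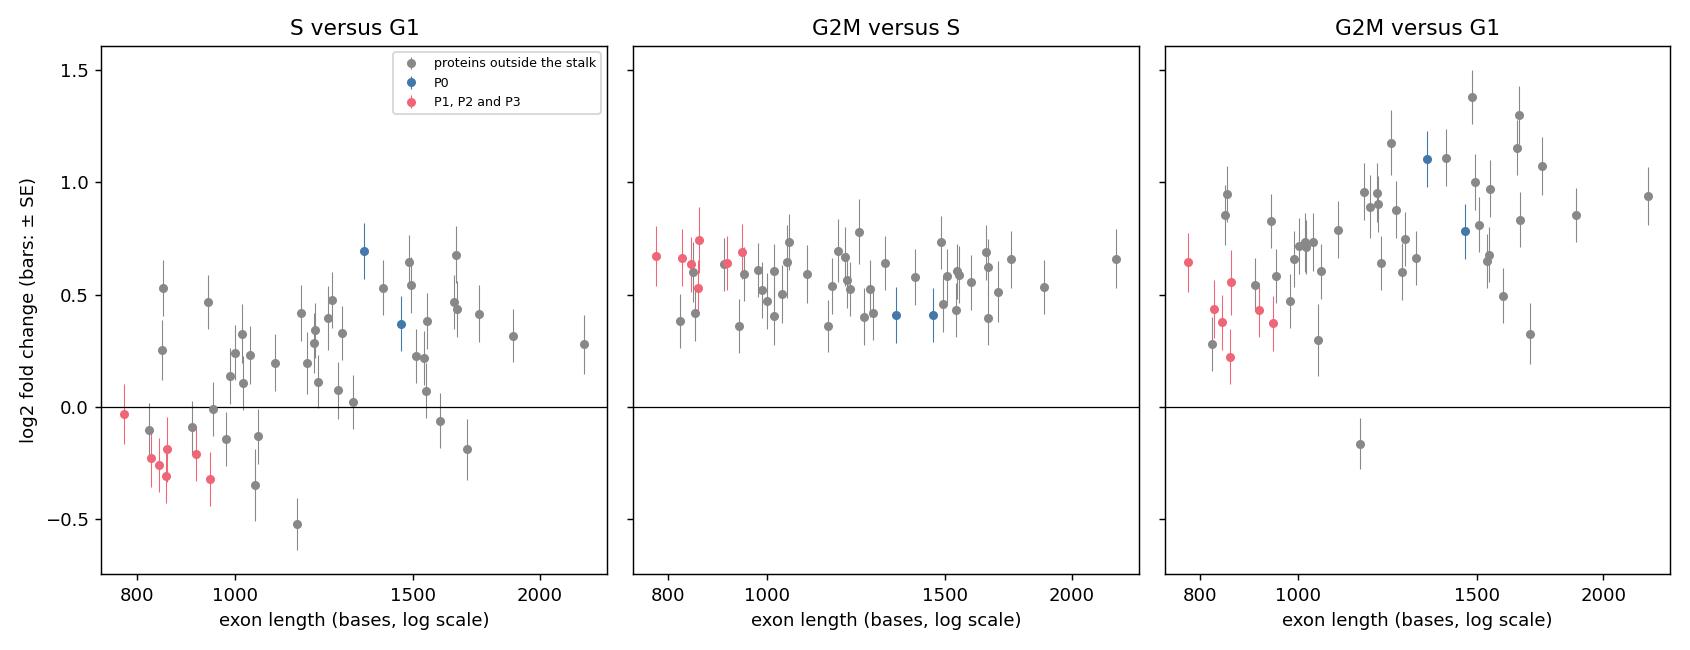
Log2 fold change (vertical axis, bars for ± 1 SE) against exon length in bases (horizontal axis, log scale) for the 50 members averaging 10 CPM or more, in the 3 comparisons. P1, P2 and P3 (red) are short and lie below 0 for S versus G1, P0 (blue) lies above 0 there, and for G2M versus S all points lie above 0 with little slope.

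In 17 of the 19 families with several paralogs the same gene had the highest TPM in all 6 libraries. The exceptions were RPL13a, where AT3G24830 and AT3G07110 lay close together, and P1, where AT1G01100 and AT5G47700 did. The share of the highest gene ranged from between 36.0% and 40.2% in RPL12 to between 94.9% and 96.1% in RPL3. In 17 of 19, the share of at least 1 paralog did not overlap between G1 and G2M. No such count was made for other gene families, and the shares within a family are not independent. For levels of single genes, 36.4% of all genes tested were higher and 42% lower without overlap in that comparison. Shares moved by small amounts in most families, and the largest shift of a family between G1 and G2M had a median of 2.1 percentage points. It was 10.5 points in RPL10 and 4.63 in RPL11, the next largest.

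**Figure D5:**
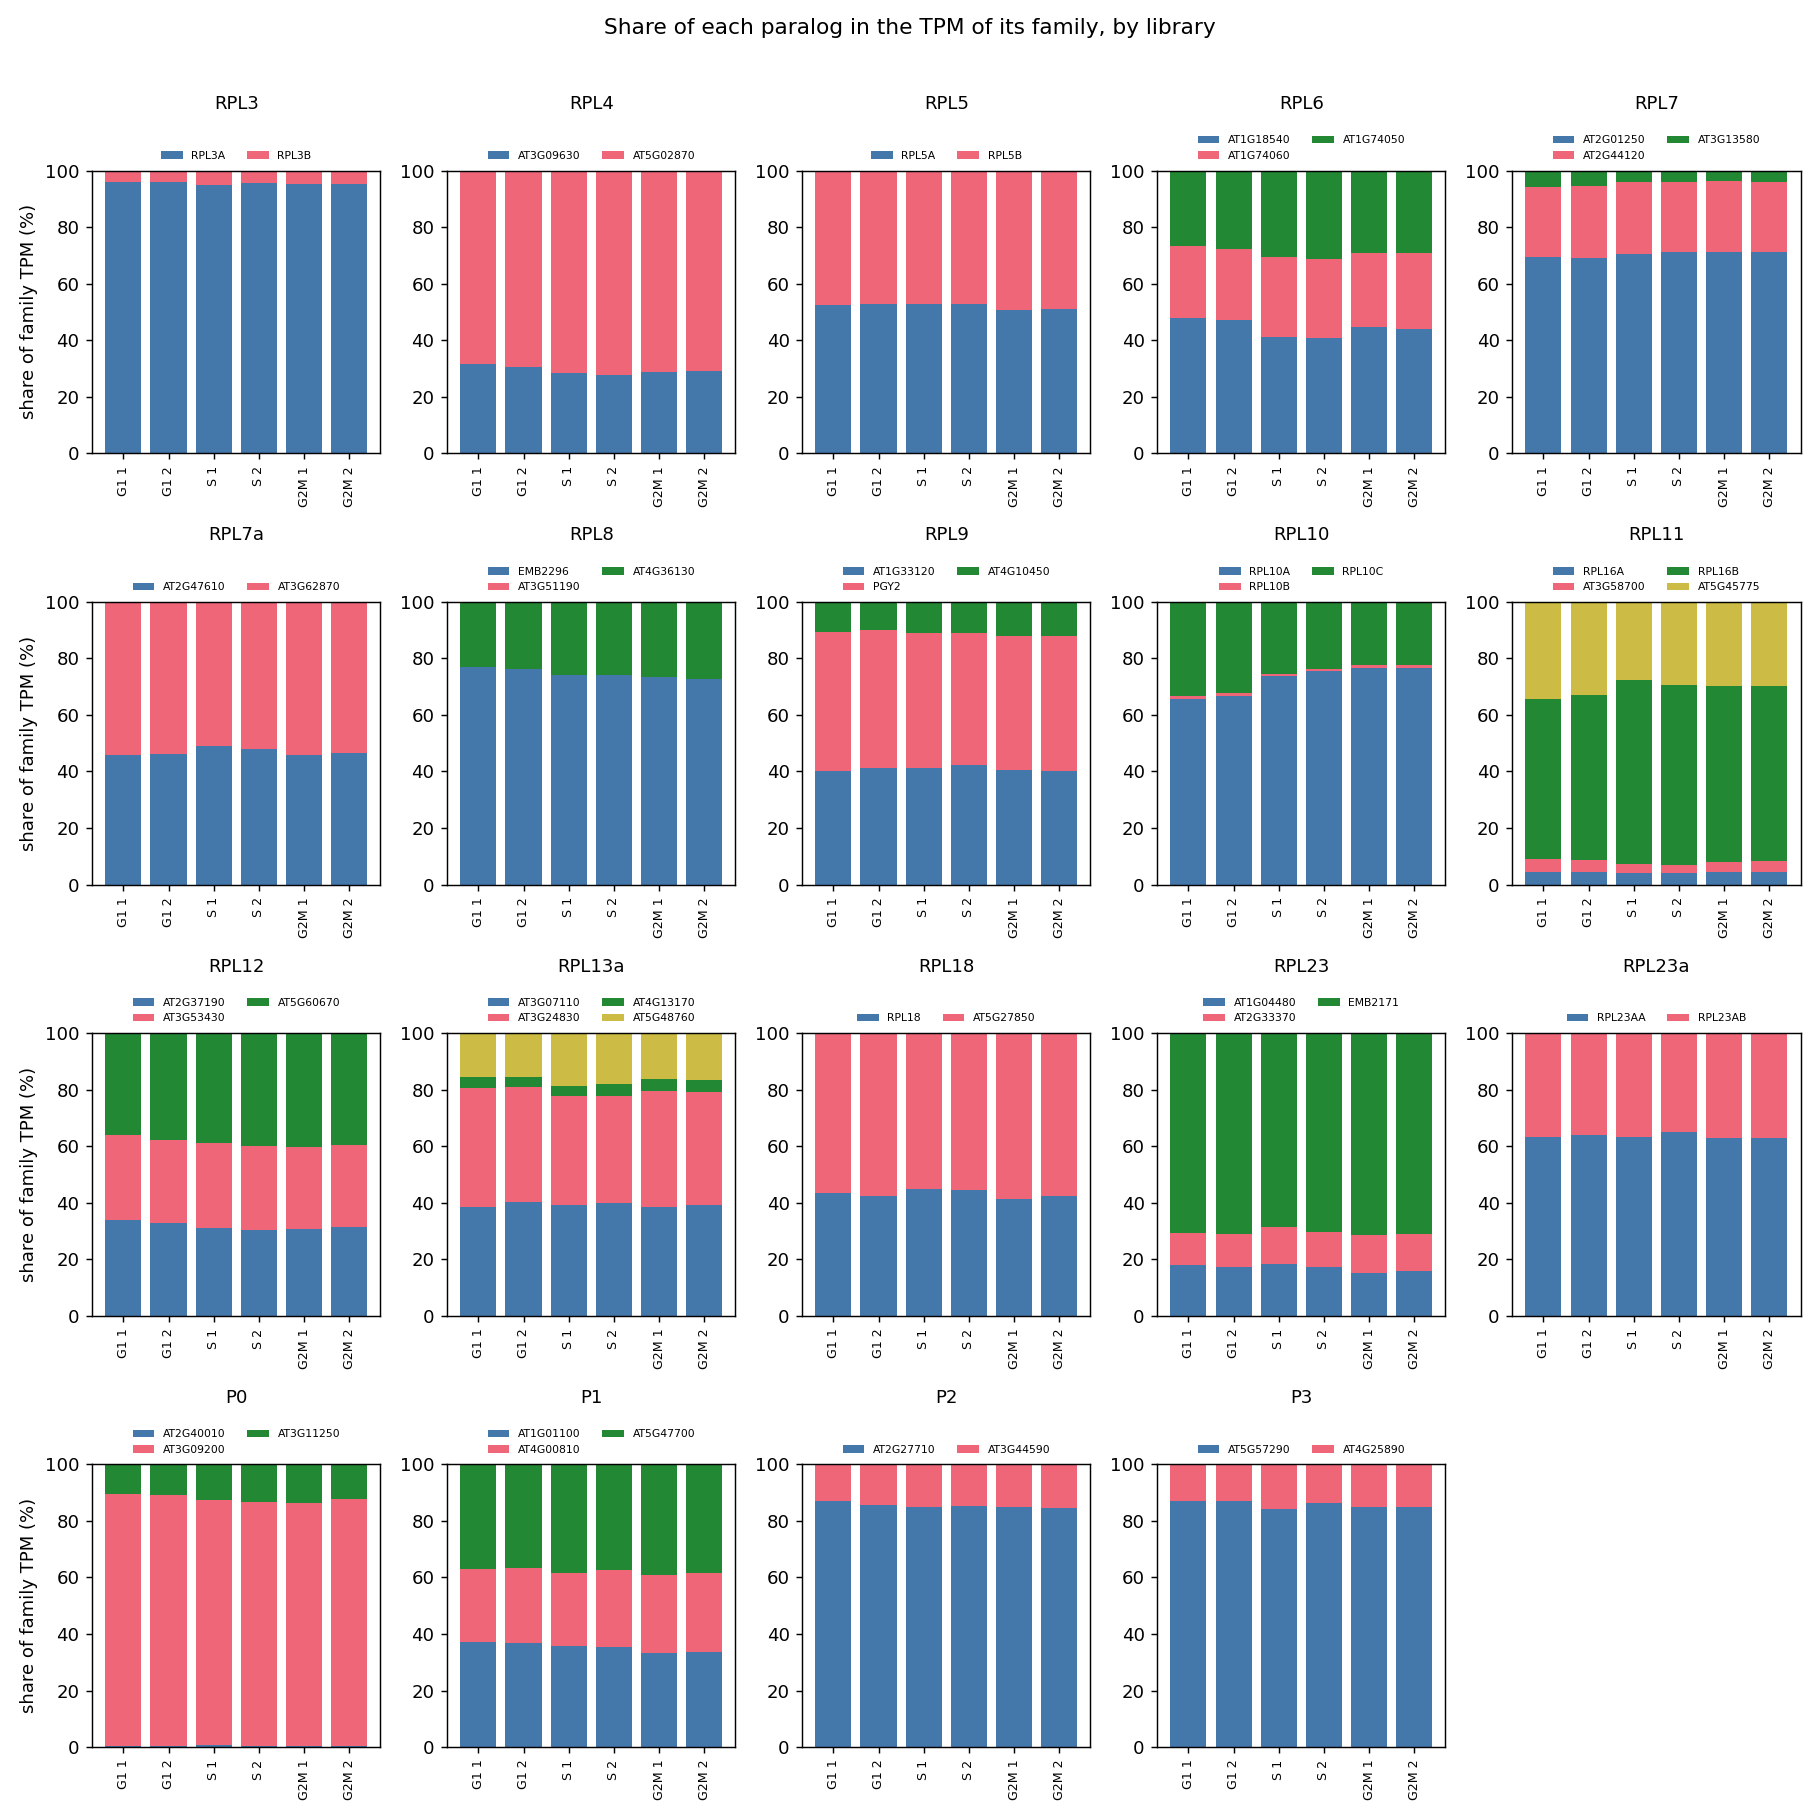
Share of each paralog in the TPM of its family (vertical axis, %) in each of the 6 libraries, for the 19 families with 2 or more listed paralogs, with stacked bars that sum to 100%. RPL10C shrinks from 33.4% and 32.3% in G1 to 22.4% in both G2M libraries, the largest shift of any family between G1 and G2M.

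The remaining 13 members, which were not among the largest changes or the highest of their family, had means between 22.2 and 1132 CPM. All of them rose from S to G2M, by 0.38 to 0.65 on the log2 scale, where 9.46% of all genes rose. From G1 to S none of them was called, and their log2 fold changes lay between -0.35 and 0.33. The 12 largest changes among the called members of each comparison had been set apart before. The absence of calls here therefore follows largely from that choice and cannot be set against the share of all genes.

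Other genes of the subunit were compared from lists. Of 66 further genes annotated as proteins of the cytosolic large subunit, 65 were tested. From G1 to S, 3 rose and 8 fell, where 13.9% and 7.28% of all genes did, with a median log2 fold change of -0.09. From S to G2M 52 of the 65 rose (median 0.61, 9.46% of all genes) and none fell, and from G1 to G2M 45 rose (median 0.48, 23.2% of all genes) and none fell. The list required an annotation to the cytosolic ribosome or its large subunit, which 42 of the 52 members carry, so it may miss genes. It also holds genes annotated like members, such as AT1G80750 and AT2G27720.

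Factors that assemble the 60S subunit also rose over the gates. Of 17 listed assembly factors, 16 rose from G1 to S with a median log2 fold change of 0.87, where 13.9% of all genes rose, 15 rose from S to G2M (median 0.51, 9.46% of all genes) and 16 rose from G1 to G2M (median 1.33, 23.2% of all genes). PES, the pescadillo homologue of pre-rRNA processing, rose from 165 ± 4.16 CPM (mean ± SD, n = 2) in G1 to 328 ± 64.7 in S and 527 ± 30.1 in G2M. LSG1-2, a GTPase of late maturation, rose by 1.41 ± 0.14 from G1 to S (edgeR adjusted p = 2.79e-05), the largest of the list. EIF6A, which keeps new subunits from joining too early, was the factor that did not pass there, at 0.20 ± 0.14 (edgeR adjusted p = 0.367), and LSG1-1 did not pass in either comparison with G2M.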

How the data were processed

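The authors deposited raw read counts per gene, whole numbers without normalization, for 6 libraries. Per the labels, cDNA came from a full-length SMART-Seq v4 kit, and per the submitters' processing notes the tools were Trimmomatic 0.39, HISAT2 2.2.1 and featureCounts on TAIR10. How featureCounts treated strand and multi-mapping reads is not given in the sources used, so close paralogs and genes overlapping on opposite strands are uncertain. A deposited table named TPM was not used, since its columns sum to far less than TPM should, and TPM was recomputed from counts and exon lengths of the TAIR10.1 annotation. No column of the count table was left over (0).

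The tool for counts was edgeR 4.0.16 under R 4.3.3 (TMM, default filterByExpr, 1 quasi-likelihood fit of 3 gates, Benjamini-Hochberg over 25364 genes), and with paralogs summed per family. DESeq2 1.42.0, upper-quartile factors, no filter, thinning, no organelle genes, GC and length offsets, a replicate block and leaving out each library were alternatives. Scripts were tested on simulated data. Shared sequence was counted in windows of 100 bases of the reference, and motifs in promoters of 300 bases.

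Values per library are given for 39 members: the 12 largest changes among those called in each comparison, the highest of each family by TPM and all stalk genes. Members that are exceptions to a count, and AT2G27720, were named after their values were seen. Members and lists were chosen with earlier results of these data known. The list of other 60S proteins was narrowed after seeing the annotation, to 71 genes placed in the cytosolic ribosome, of which 5 were dropped by hand. The reads carry no molecular identifiers and may be copies of 1 molecule, so counting intervals cover counting error only.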

Additional observations from a re-analysis of the deposited data

How the results depend on the processing

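From G1 to S, the counts of members called higher and lower were 8 and 10 under upper-quartile scaling, 27 and 1 under GC and length offsets, and 29 and 1 with the offsets and the replicate block. In the same order, the shares of all genes were 9.46% and 11.9%, 10.3% and 7.12%, and 9.71% and 6.65%. DESeq2 called 4 members lower and thinned libraries 2, where 7.22% and 9.04% of all genes were called lower. With upper-quartile factors the median log2 fold change of 60S members, S versus G1, was 0.032. For family sums, upper-quartile factors gave 2 higher and 5 lower, DESeq2 2 lower, the offsets 13 higher and the offsets with the block 14 higher. The share of all rows called was not taken for the family sums in these settings. Leaving out 1 library gave 4 to 27 members higher and 0 to 3 lower, and 0 to 13 families higher and 0 to 1 lower. From S to G2M, the same gave 8 to 50 members higher and 0 to 1 lower, and 4 to 20 families higher. From G1 to G2M, leaving out 1 library gave 38 to 48 members higher and 0 to 1 lower. There, upper-quartile factors called 2 members lower, and the offsets, the block and both together 0. The shares of all genes called lower were 22.3%, 18.7%, 15.6% and 17.7% in that order. The members' median was 0.51 under upper-quartile scaling and 0.85 under the offsets, with or without the block. The causes were not tested.

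Over all genes tested, deviations of same-numbered libraries correlated between gates at -0.046, 0.031 and -0.065. Such values cannot show whether the libraries were prepared in pairs, and no label says so. Among the members, 45 (G1), 47 (S) and 46 (G2M) of 52 were higher in replicate 2. A replicate block gave 16 members higher and 1 lower from G1 to S, 48 and 0 from S to G2M, and 46 and 0 from G1 to G2M. Over all genes it gave 13.2% and 6.62%, 8.33% and 8.42%, and 22.5% and 15.6% in that order. Of the calls, 4 of 16, 5 of 49 and 38 of 47 were made in each of the 14 alternatives, and each called member kept its sign in all of them. S replicate 2 was the shallowest library with 13114711 counts. With all libraries thinned to that depth, 16 members were called higher from G1 to S and 48 from S to G2M, against 15 and 49 at full depth. The thinned libraries gave 16.8% and 10.9% of all genes called higher in these comparisons.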
